A study of Oryctolagus cuniculus with 8 samples.

Results

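Ion channels are the proteins that let potassium, sodium, calcium, chloride and other ions cross the cell membrane, and their genes were followed here in the forebrain of preterm rabbit pups given dexamethasone. The members are the array probes whose description names a voltage-gated, inwardly rectifying, large-conductance or other potassium channel, a sodium, calcium or chloride channel, a transient receptor potential channel or a hyperpolarization activated channel. The wording selected 295 of 43603 probes, which carry 137 of the 23401 gene names on the array. It uses names only and no measured value. It also takes in 15 genes that are named after a channel without forming or accompanying one, such as the KCTD genes, KCMF1 and CLNS1A, while 99 genes encode a pore-forming part and 23 an auxiliary part.

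The pups were New Zealand rabbits delivered by Caesarean section on day 29 of a 32-day gestation and sampled at postnatal day 14. The dexamethasone group of 4 samples received this synthetic glucocorticoid by intramuscular injection in doses of 0.25 mg/kg, with 2 doses daily over no more than 5 days. The saline group of 4 samples was born preterm in the same way and received the vehicle, so that prematurity is common to both groups. The design text calls the samples biological replicates, and no label gives litter or sex. RNA was hybridised to 4 Agilent arrays, each shared by 2 samples of a single group. Samples 1 and 3 were labelled with the dye Cy3, and samples 2 and 4 with Cy5. In this bulk tissue, fewer cells of a type and less RNA per cell cannot be told apart.

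In neurons, voltage-gated sodium channels start the action potential and voltage-gated potassium channels end it, while calcium channels turn it into transmitter release and calcium signals. Inwardly rectifying and 2-pore-domain potassium channels hold the resting potential, and hyperpolarization activated (HCN) channels carry a current that paces rhythmic firing. Glial cells use potassium channels to take up potassium released by neurons, and chloride channels of the CLC family serve the membrane or the acidification of endosomes and lysosomes. As the forebrain matures, many of these genes are switched on together with synapses and myelin.

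Dexamethasone and saline arrays were on separate slides and in separate scans, so the treatment cannot be told apart from slide or scan anywhere below. Between 47.7% and 64.3% of spots were well above background in the dexamethasone samples and between 39.1% and 59.7% in the saline samples. Of the neuron markers, all 8 with a probe were well above background in at least 1 sample, as were all 11 astrocyte markers with a probe. The saline arrays stood apart from each other. Of the 71 channel genes with a value in all 4 dexamethasone samples, 15 (21.1%, against 25.3% of all genes) had the samples of one array wholly above those of the other. Of the 67 with a value in all 4 saline samples, 54 (80.6%, against 65.2% of all genes) had saline 1 and 2 wholly on one side of saline 3 and 4. The median size of the difference between the 2 arrays of a group was 0.11 log2 units in dexamethasone and 0.22 in saline. Without one or the other saline array, 30 of the 40 channel genes named by rule moved by over 1.5 times or took the other sign, 10 of them the other sign, and values without an array are given for those described at most length.

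Detection set how many channels could be compared. Well above background were 151, 224, 153 and 212 of the 295 channel probes in dexamethasone 1 to 4, against 127, 167, 99 and 192 in saline 1 to 4. Within each dye both dexamethasone samples lay above both saline samples, and the same held for all spots on the array. Of the 137 genes, 33 had no probe well above background in any sample, 31 reached it in only 1 to 3 samples, and SCN2A, a main sodium channel of forebrain axons, had too few usable values. The remaining 72 were tested. Among the genes not well above background in any sample were KCNJ2, KCNJ10, the potassium channel of astrocytes, and CACNA1G, a T-type calcium channel.

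**Figure D1:**
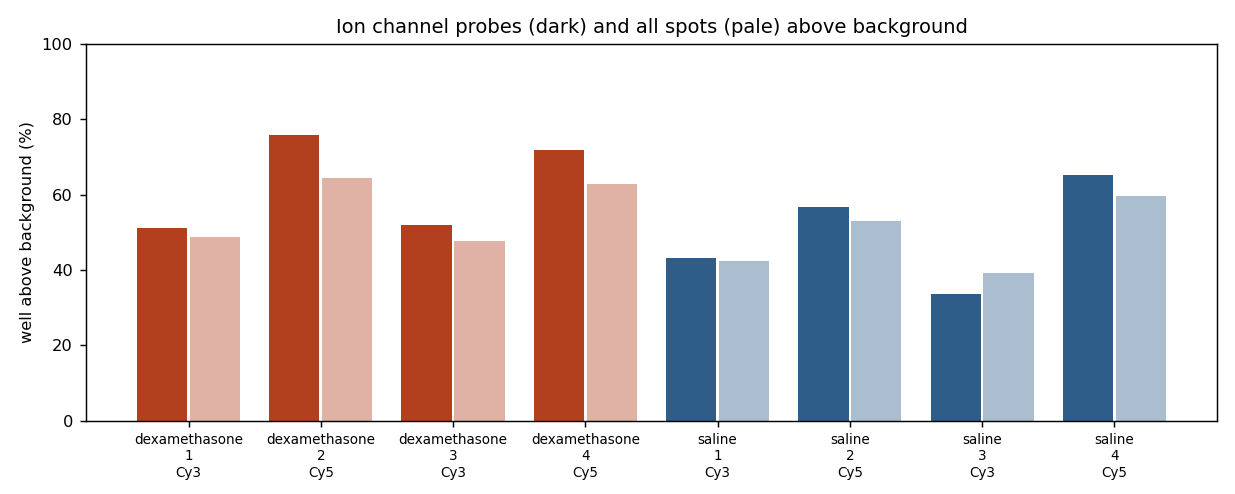
Share of probes or spots well above background (vertical axis, percent) in each sample, with the 295 ion channel probes as dark bars and all spots as pale bars. Channel probes range from 51.2% to 75.9% in the dexamethasone samples and from 33.6% to 65.1% in the saline samples, with Cy5 samples above Cy3 samples in each group.

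None of the 72 tested channel genes passed an adjusted p of 0.05 (limma, Benjamini-Hochberg over 11252 genes), where 0.0622% of all genes did. At an unadjusted p under 0.05 there were 5 channel genes (6.94%), 3 higher and 2 lower with dexamethasone, against 13.7% of all genes (6.35% higher and 7.39% lower). In 6 channel genes (8.33%), 2 of them higher and 4 lower with dexamethasone, no value of one group lay within the range of the other, against 13.4% of all genes (5.94% higher and 7.43% lower), so the share of channel genes was not above the background by either count when all samples were used. Without saline 1 the unadjusted count was 13 of 67 channel genes (19.4%, against 18.2% of all genes), without saline 2 it was 12 of 67 (17.9%, against 20.8%), and without both it was 29 of 67 (43.3%, against 37.9%). Without saline 3 the count was 7 of 68 (10.3%, against 14.5%), and without saline 4 it was 4 of 71 (5.63%, against 13.5%). Without both saline 3 and 4 it was 10 of 73 (13.7%, against 21.4%). The log2 difference of dexamethasone minus saline was above 0 in 37 genes and below 0 in 35, with a median of 0.01 against 0.02 over all genes. Its median size was 0.17 log2 units, against 0.15 over all genes. Pore-forming genes divided evenly, with 27 above 0 and 27 below, and auxiliary genes had 5 above and 6 below. At an adjusted p under 0.05, 15 of 67 channel genes were called without the array of saline 1 and 2, where 21.1% of all genes were, and 2 of 73 without the array of saline 3 and 4, where 1.68% of all genes were. With samples scaled to their 75th percentile without loess, 17 of 72 were called, where 19% of all genes were. Leaving out either array left saline with a single array, so its spread between arrays did not enter those fits.

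**Figure D2:**
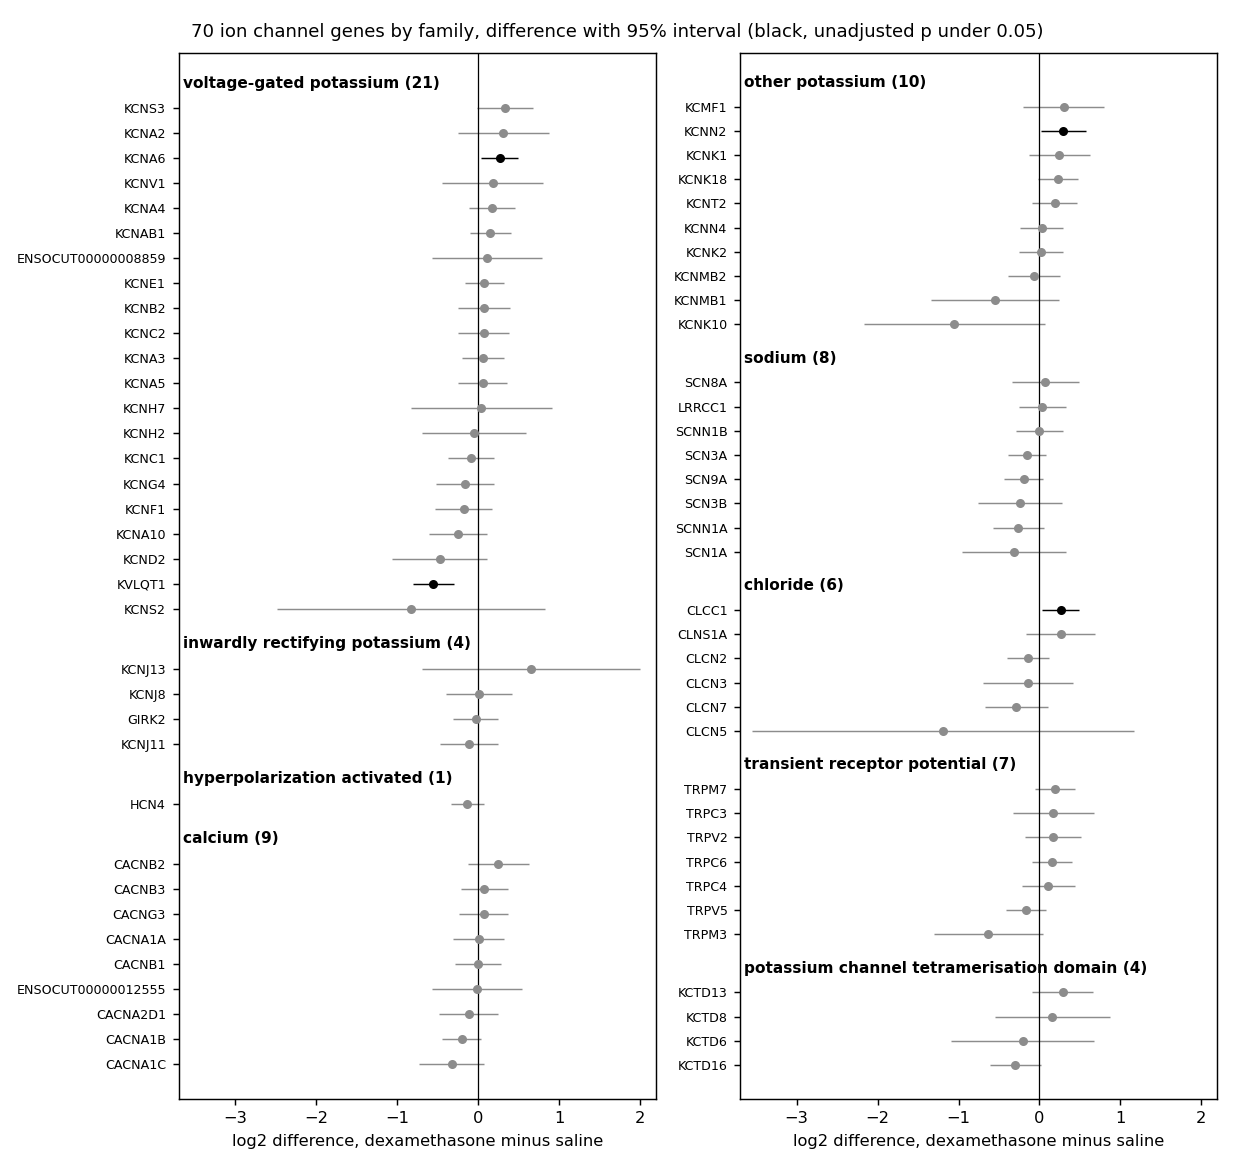
Log2 difference of dexamethasone minus saline (horizontal axis) with its 95% interval for 70 of the 72 tested genes, grouped by family with the number of genes plotted. Black points mark the 4 of these genes with an unadjusted p under 0.05, and the intervals of the other 66 reach across 0.

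Of the 5 channel genes with an unadjusted p under 0.05, KVLQT1, CLCC1, KCNA6 and KCNN2 were each measured by 1 tested probe, and these probe sequences are given here as the targets that the values refer to. They are in lower case throughout, 5′ to 3′, as listed in the array annotation.
KVLQT1 (A_04_P013746): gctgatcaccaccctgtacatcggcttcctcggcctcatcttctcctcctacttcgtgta
CLCC1 (A_04_P094207): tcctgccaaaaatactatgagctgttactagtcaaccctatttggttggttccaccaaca
KCNA6 (A_04_P035617): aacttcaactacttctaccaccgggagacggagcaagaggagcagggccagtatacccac
KCNN2 (A_04_P074417): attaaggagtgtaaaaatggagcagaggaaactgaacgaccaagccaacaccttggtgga
The annotation places the CLCC1 probe at chr13:55277666-55277725 (plus strand) and the KCNA6 probe at chr8:30901755-30901814 (plus strand) of oryCun2. The KVLQT1 and KCNN2 probes have no position in the annotation. Channel genes of a family share much of their sequence, and whether a probe also binds a related transcript was not tested.

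Among the voltage-gated potassium channels, 21 of 39 genes were tested, 13 above 0 and 8 below, with a median of 0.06. The balance was 9 above and 12 below without the array of saline 3 and 4, and 5 above and 16 below with 75th percentile scaling, which moved the median of all genes to -0.25. KVLQT1, also known as KCNQ1, encodes a slowly activating potassium channel best known from heart and inner ear. It read 9.61, 9.68, 9.76 and 9.66 log2 units in dexamethasone 1 to 4, against 10.24, 10.01, 10.36 and 10.33 in saline 1 to 4. All 4 dexamethasone values lay below all 4 saline values. The log2 difference was -0.56 (SE 0.11, a 0.68-fold level), the smallest p of all channel genes, but the adjusted p was 0.177 (limma). It stayed below 0 in all 28 alternative settings, between -0.745 and -0.44, and was -0.67 without the array of saline 1 and 2 and -0.45 without that of saline 3 and 4. Its adjusted p was under 0.05 in 1 of these fits, without the array of saline 1 and 2 (0.00646), and ranged up to 0.813.

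KCNA6, a Shaker-type channel subunit of the delayed rectifier kind, read 8.60, 8.70, 8.76 and 8.68 in dexamethasone 1 to 4, against 8.53, 8.52, 8.32 and 8.32 in saline 1 to 4. The groups did not overlap, although saline 1 and 2 came close to dexamethasone 1. Its probe was well above background in all 4 dexamethasone samples but in only 2 of 4 saline samples. The difference was 0.27 (SE 0.10, adjusted p = 0.349), and it was -0.76 when samples were scaled to their 75th percentile without loess. KCNS3, a silent subunit that modifies other channels, had a difference of 0.33 (SE 0.15, adjusted p = 0.368) and was well above background in 3 of 4 dexamethasone and 1 of 4 saline samples. KCND2, which carries the A-type current of dendrites, averaged 11.92 ± 0.32 in dexamethasone and 12.39 ± 0.43 in saline (SD, n = 4 each). Its saline values were 11.96 and 12.09 on one array and 12.84 and 12.68 on the other, so that the difference of -0.48 was -0.84 without the first of these arrays and -0.11 without the second. KCNA2, KCNAB1, KCNC1 and KCNH2, further subunits of axonal, fast-firing or repolarizing channels, had differences of 0.31, 0.15, -0.09 and -0.05 with adjusted p from 0.522 to 0.941, and KCNA2 had 0.67 without the array of saline 1 and 2 and -0.04 without that of saline 3 and 4.

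**Figure D3:**
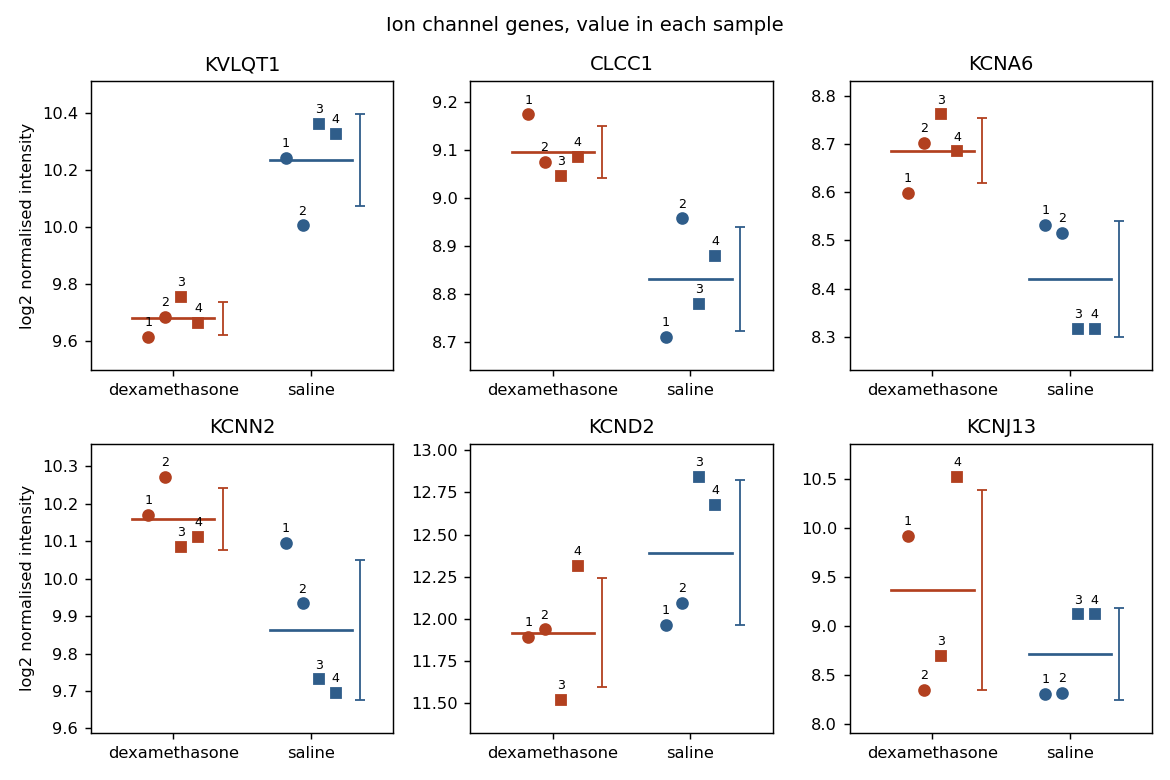
Log2 normalised intensity (vertical axis) of 6 ion channel genes in each numbered sample, with circles and squares for the 2 arrays of a group, a line at the group mean and a bar for its SD. KVLQT1, CLCC1 and KCNA6 do not overlap between groups, and KCNJ13 is high in dexamethasone 1 and 4.

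The inwardly rectifying potassium channels had 4 of 12 genes tested, 2 on each side of 0. KCNJ13 encodes Kir7.1, a channel known from the choroid plexus and other epithelia. It read 9.92, 8.35, 8.70 and 10.52 in dexamethasone 1 to 4, against 8.31, 8.32, 9.12 and 9.12 in saline 1 to 4. Dexamethasone 1 and 4 were high and dexamethasone 2 was at the level of the lowest saline samples, so the difference of 0.65 (SE 0.59, adjusted p = 0.603) was within the spread. It was 0.25 without the array of saline 1 and 2 and 1.06 without that of saline 3 and 4. All 3 of its probes lay above 0, at 0.65, 0.65 and 0.71. Their sequences are shown because they overlap like steps of a ladder, with the 15 bases common to all 3 in capitals.
KCNJ13 (A_04_P004173): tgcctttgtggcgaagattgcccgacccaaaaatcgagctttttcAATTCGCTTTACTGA
KCNJ13 (A_04_P004172): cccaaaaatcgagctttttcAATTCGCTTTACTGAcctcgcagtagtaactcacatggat
KCNJ13 (A_04_P004171): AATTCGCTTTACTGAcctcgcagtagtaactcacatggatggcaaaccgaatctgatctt

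Transthyretin (TTR), the main secreted protein of the choroid plexus, read 18.27, 15.48, 13.94 and 18.19 in dexamethasone 1 to 4, against 16.44, 15.50, 16.68 and 17.14 in saline 1 to 4. It was thus high in the same dexamethasone samples as KCNJ13. Of the 6 choroid plexus and ependyma markers, FOXJ1, CLIC6 and AQP1 were not well above background in any sample, and 3 were tested. Klotho (KL) had a difference of -0.49, the cilia gene DNAI1 of 0.46, and TTR of 0.03. Within the dexamethasone group DNAI1 was also highest in samples 1 and 4, at 9.78 and 9.76 log2 units. KL did not share this pattern, with its lowest dexamethasone value in sample 1, at 11.49, and its highest in sample 3, at 11.86. The mean level of the tested markers ranged from 11.72 to 13.25 log2 units in dexamethasone and from 12.15 to 13.03 in saline. The high values in dexamethasone 1 and 4 were not particular to choroid plexus markers. Within the dexamethasone group the neuron markers NEFL, NEFM and STMN2 were also highest in samples 1 and 4, while SYT1, RTN1, UCHL1 and MAP2 were not. NEFL read 15.67, 13.70, 13.92 and 15.72 in dexamethasone 1 to 4. The part of choroid plexus tissue in the KCNJ13 values was not tested. KCNJ11 and GIRK2, subunits of ATP-sensitive and G protein-gated channels, had differences of -0.12 and -0.03 (adjusted p = 0.738 and 0.916).

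Of the other potassium channels, 10 of 15 genes were tested, 7 above 0 and 3 below, a balance that was 5 above and 5 below with the processed signals and without the array of saline 3 and 4, and 3 above and 7 below with 75th percentile scaling. KCNN2, a calcium-activated channel of small conductance that follows the action potential, carries a RefSeq symbol that differs from the array's description, which names SK3. It read 10.17, 10.27, 10.08 and 10.11 in dexamethasone 1 to 4, against 10.09, 9.93, 9.73 and 9.69 in saline 1 to 4. The groups overlapped by 1 sample, saline 1, and the difference was 0.30 (SE 0.12, adjusted p = 0.359). It was 0.45 without the array of saline 1 and 2 and 0.15 without that of saline 3 and 4. KCNK18 and KCNK1, 2-pore-domain channels, had differences of 0.23 and 0.24 (adjusted p = 0.376 and 0.492). The 5 tested probes of KCNK1 did not agree, with 4 between 0.18 and 0.35 and the other at -0.06, in which saline 3 and 4 read 9.68 and 9.43 and saline 1 and 2 read 8.52 and 8.63.

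KCNK10, or TREK-2, a 2-pore-domain channel opened by stretch and lipids, read 8.88, 8.82, 8.58 and 8.67 in dexamethasone 1 to 4, against 8.99, 8.77, 11.13 and 10.28 in saline 1 to 4. The saline values of 1 array stood above all the rest, and the difference of -1.05 (SE 0.49, adjusted p = 0.371) became -0.14 without that array, which held saline 3 and 4. Without the array of saline 1 and 2 it was -1.97. The second probe of the gene, which lies nearby on the same (plus) strand, differed by -0.02 (SE 0.08) and read between 8.48 and 8.56 in all samples. Both sequences are shown because they disagree, at chr20:17196804-17196863 for the first and chr20:17196655-17196714 for the second.
KCNK10 (A_04_P001871): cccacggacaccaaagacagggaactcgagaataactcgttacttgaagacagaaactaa
KCNK10 (A_04_P001872): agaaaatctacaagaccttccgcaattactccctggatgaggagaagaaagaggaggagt

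The HCN channels had 2 of 3 genes tested. HCN4, an HCN channel also known from the pacemaker of the heart, differed by -0.13 (SE 0.09, adjusted p = 0.493) and did not overlap between groups, with 8.23 to 8.33 in dexamethasone and 8.38 to 8.53 in saline, each group being well above background in 2 samples only.

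Of the sodium channels, 7 of 9 tested genes were below 0, with a median of -0.20, against 0.02 over all genes. With 75th percentile scaling their median of -0.28 lay near the median of all genes, -0.25, with 4 genes above that value and 5 below. In the other 4 background or scaling settings and the deposited table, 6 or 7 of 9 were below 0 and their median minus that of all genes lay between -0.34 and -0.22. The median was -0.25 without the array of saline 1 and 2, with 3 of 9 genes above 0. It was -0.12 without the array of saline 3 and 4, with 2 of 10 above 0. The 9 genes include LRRCC1, at 0.04, which does not encode a channel.

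SCN1A, the channel of fast-firing interneurons, differed by -0.31 (SE 0.28, adjusted p = 0.605) and its second probe by -0.43. The first probe had -0.70 without the array of saline 1 and 2 but 0.08 without that of saline 3 and 4. SCN9A, SCN3A and SCN8A, sensory, embryonic and adult neuronal forms, had differences of -0.20, -0.15 and 0.07 with adjusted p of 0.411, 0.49 and 0.855, and SCN8A had 0.36 without the array of saline 1 and 2 and -0.22 without that of saline 3 and 4. SCNN1A, a subunit of the epithelial sodium channel, a known glucocorticoid target in lung and kidney, did not overlap between groups, with 8.63 to 8.94 in dexamethasone and 8.97 to 9.31 in saline. Its difference was -0.26 (SE 0.14, adjusted p = 0.41). Its 5 tested probes, which start 1 base apart on the minus strand of chr8:32421015-32421078, ranged from -0.40 to 0.01. SCNN1B of the same channel was near 0 (SE 0.13) in the probe that stands for it. The 5 tested probes of SCNN1B ranged from -0.25 to 0.21, and 4 of them were below 0, as were 4 of SCNN1A.

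The calcium channels had 9 of 18 genes tested, 4 above 0 and 5 below, a balance that was 1 above and 8 below without the array of saline 3 and 4 and 2 above and 7 below with the processed signals. CACNA1B, the N-type pore that drives transmitter release, averaged 9.48 ± 0.12 in dexamethasone and 9.68 ± 0.16 in saline (SD, n = 4 each), a difference of -0.20 (SE 0.10, adjusted p = 0.401) that was -0.32 without the array of saline 1 and 2 and -0.08 without that of saline 3 and 4. CACNA1C, the L-type pore, averaged 8.95 ± 0.15 in dexamethasone and 9.28 ± 0.35 in saline (SD, n = 4 each). Its saline values of 9.64 and 9.45 on 1 array were the highest, and the difference of -0.33 (SE 0.17) was -0.06 without that array, which held saline 3 and 4. Without the array of saline 1 and 2 it was -0.59. CACNB2, an auxiliary beta subunit, had a difference of 0.25 (SE 0.16) and dexamethasone 4 as its highest sample, at 10.39. This was the highest difference of its 6 tested probes, which ranged down to -0.10, with 4 above 0 and 2 below. CACNA1A, CACNB3 and CACNA2D1 lay between -0.12 and 0.08, while the 3 tested probes of CACNA1A ranged from -0.32 to 0.06.

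The chloride channels had 6 of 11 genes tested, 2 above 0 and 4 below. This balance was 3 above and 2 below without the array of saline 1 and 2, and 1 above and 5 below without that of saline 3 and 4. It was 3 above and 3 below with the processed signals. With 75th percentile scaling 2 were above 0, and 4 of 6 were above the median of all genes. CLCC1, a chloride channel of the endoplasmic reticulum, read 9.17, 9.08, 9.05 and 9.09 in dexamethasone 1 to 4, against 8.71, 8.96, 8.78 and 8.88 in saline 1 to 4. The groups did not overlap, and the difference was 0.26 (SE 0.10, adjusted p = 0.346) in the reported fit and -0.33 with 75th percentile scaling. CLCN7, the lysosomal chloride exchanger, averaged 11.37 ± 0.17 in dexamethasone (SD, n = 4) and 11.65 ± 0.25 in saline (SD, n = 3). Its difference was -0.28 (SE 0.17) and -0.14 without the array of saline 3 and 4. The second tested probe differed by -0.75 (SE 0.23), with an adjusted p of 0.346 in the fit over all probes. CLCN2 and CLCN3, CLC family members of the membrane and of endosomes, had differences of -0.14 and -0.15 (adjusted p = 0.554 and 0.788).

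CLCN5, an endosomal exchanger singled out after its values were seen, read 10.16, 9.66, 7.87 and 7.93 in dexamethasone 1 to 4, against 12.33, 11.43, 8.34 and 8.29 in saline 1 to 4. Both samples of the first array of each group were high, and the probe was well above background in 2 of 4 dexamethasone and 3 of 4 saline samples. The resulting difference of -1.19 (SE 1.03) had an adjusted p of 0.588 although it was the widest of all members.

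CLNS1A is not a channel but a chaperone of splicing factors that was first described as a chloride channel regulator. All 8 of its probes had a difference above 0, from 0.19 to 0.36. With 75th percentile scaling 5 of the 8 were below 0, and all 8 were above the median of all genes. For the probe that stands for the gene the difference was 0.26 (SE 0.19, adjusted p = 0.52). It was 0.54 without the array of saline 1 and 2 and -0.01 without that of saline 3 and 4. Saline 3 was its lowest sample at 10.93, against 11.58 to 11.88 in the other saline samples.

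The transient receptor potential channels, cation channels that respond to lipids, heat or store release, had 7 of 14 genes tested. With 5 above 0 and 2 below, their median was 0.15, while with 75th percentile scaling 1 of 7 was above 0 and 2 of 7 were above the median of all genes. TRPM3 read 7.72, 8.16, 8.03 and 7.98 in dexamethasone 1 to 4, against 9.39, 8.72, 8.15 and 8.16 in saline 1 to 4. Saline 1 and 2 were the highest, and the difference of -0.63 (SE 0.29, adjusted p = 0.371) was -0.18 without them and -1.085 without the array of saline 3 and 4. The probe named TRPM7 in RefSeq, a channel fused to a kinase, is described as TRPM6-like on the array. It had a difference of 0.20 (SE 0.11, adjusted p = 0.423), which was 0.33 without the array of saline 1 and 2 and 0.06 without that of saline 3 and 4. TRPV5 and TRPC4 had -0.17 and 0.11, and TRPC4 had 0.28 without the array of saline 1 and 2 and -0.06 without that of saline 3 and 4.

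Of the KCTD genes, whose proteins share the tetramerisation domain of potassium channels and serve as adaptors, 4 of 10 were tested, 2 above 0 and 2 below. KCTD16, an auxiliary subunit of GABA-B receptors, averaged 8.65 ± 0.22 in dexamethasone and 8.95 ± 0.12 in saline (SD, n = 4 each), and its 3 probes were all below 0, from -0.30 to -0.10. KCTD13 had a difference of 0.29 (SE 0.16, adjusted p = 0.438), and KCTD6 one of -0.21 with dexamethasone samples spread from 7.88 to 9.56. The 2 tested probes of KCTD6 differed in sign, at -0.21 and 0.29.

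Genes with several probes gave a measure of how far 1 transcript's value depends on the probe. Among the 35 genes with 2 or more tested probes, 17 had all probes on the same side of 0. The differences of a gene's probes spanned 0.21 log2 units from lowest to highest in the median gene. This range over several probes is not the same measure as the size of a gene's difference, so the 2 were not compared. The widest span was 1.17, in KCNS2, a silent subunit of voltage-gated channels, which was singled out with KCMF1 after its values were seen. Its 3 probes start within 7 bases of each other on the plus strand of chr3:114176210-114176276 and share the 53 bases in capitals.
KCNS2 (A_04_P091934): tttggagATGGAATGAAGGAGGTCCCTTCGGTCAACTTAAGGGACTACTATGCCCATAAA
KCNS2 (A_04_P091933): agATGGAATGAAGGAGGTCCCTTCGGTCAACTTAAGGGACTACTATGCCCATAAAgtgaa
KCNS2 (A_04_P091932): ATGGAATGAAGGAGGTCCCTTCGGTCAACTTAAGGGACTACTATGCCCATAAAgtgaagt
The middle probe, which stands for the gene, read 9.34, 8.44, 8.99 and 9.18 in dexamethasone 1 to 4, against 11.72, 10.65, 8.45 and 8.46 in saline 1 to 4, and differed by -0.83 (SE 0.71). Saline 1 and 2 were high in this probe alone. The first probe differed by 0.15 (SE 0.20) and the last by 0.33 (SE 0.17), with saline values of 8.19 to 8.94 across both.

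KCMF1, a ubiquitin ligase named for potassium channel modulatory factor, had probes on adjoining stretches of the minus strand that differed in sign. They lie at chr2:101151594-101151653 and chr2:101151654-101151713 and are printed in this order.
KCMF1 (A_04_P058397): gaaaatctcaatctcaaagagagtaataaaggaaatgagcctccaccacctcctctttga
KCMF1 (A_04_P058398): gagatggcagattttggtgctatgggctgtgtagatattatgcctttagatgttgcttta
The first read 10.24 to 10.31 in dexamethasone and 10.49 to 10.68 in saline, a difference of -0.31 (SE 0.09) with no overlap. The second, which stands for the gene, differed by 0.30 (SE 0.21).

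**Figure D4:**
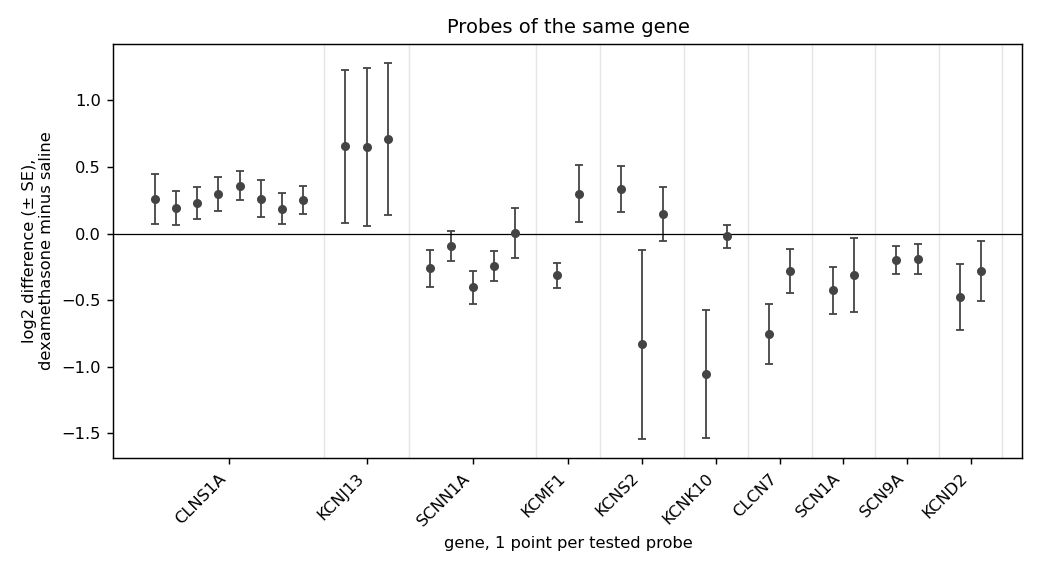
Log2 difference of dexamethasone minus saline (vertical axis) with its SE for each tested probe of 10 genes with several probes. The 8 probes of CLNS1A and the 3 of KCNJ13 lie together above 0, and those of KCNS2, KCNK10 and KCMF1 lie far apart.

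CLCN5, KCNK10 and KCNS2, the 3 members with the most negative difference between groups, were also those whose saline arrays lay farthest apart. The first array minus the second was 2.01 log2 units with dexamethasone and 3.57 in saline for CLCN5. It was 0.23 with dexamethasone and -1.83 in saline for KCNK10, and -0.19 with dexamethasone and 2.73 in saline for KCNS2. Since the same saline values enter both differences, they are not independent of each other.

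**Figure D5:**
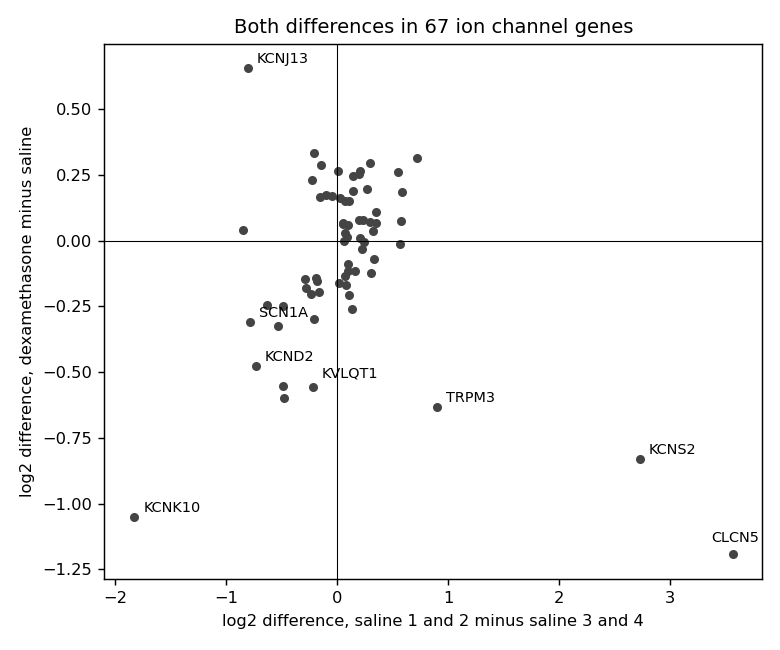
Difference of dexamethasone minus saline (vertical axis, log2) against the difference between the 2 saline arrays (horizontal axis, log2) for the 67 ion channel genes with 4 saline values. The same saline values enter both axes, and CLCN5, KCNS2 and KCNK10 lie farthest from 0 on both.

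Of the genes outside the name rule that serve the same currents, none passed an adjusted p of 0.05. Of the ion pumps and exchangers, 12 were tested, 7 above 0 and 5 below, with 2 at an unadjusted p under 0.05 (against 13.7% of all genes) and 2 without overlap between groups (against 13.4%). ATP1B2, the beta subunit of the glial sodium pump, averaged 8.63 ± 0.10 in dexamethasone and 9.15 ± 0.32 in saline (SD, n = 4 each), a difference of -0.52 (SE 0.16, adjusted p = 0.311). SLC8A1, the sodium-calcium exchanger, differed by -0.51 (SE 0.17, adjusted p = 0.326), and in both genes the groups did not overlap. Of the channel partners and anchors, 15 were tested, 6 above 0 and 9 below. At an unadjusted p under 0.05 were 3 of these 15 (against 13.7% of all genes), and 4 of the 15 had no overlap (against 13.4%). CNTNAP2, which gathers potassium channels beside the nodes of Ranvier, differed by -0.44 (SE 0.15, adjusted p = 0.327). FGF13, a cytosolic partner of sodium channels, differed by 0.59 (SE 0.22, adjusted p = 0.346). Of 16 other channels tested, such as the mitochondrial pore VDAC2 at 0.35 (SE 0.15, adjusted p = 0.361), 8 lay above 0 and 8 below. Of these 16, 1 was at an unadjusted p under 0.05 (against 13.7% of all genes) and 1 had no overlap (against 13.4%).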

How the data were processed

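Rabbit 2-colour arrays were scanned and quantified with Agilent Feature Extraction. The submitters' processing notes give its version as 10.7.3.1 and the file headers as 11.0.1.1. Positions refer to oryCun2, per the file headers. The deposited scanner files give spot intensity (mean, median and background of each dye) and a processed signal made by the authors' scanner software. The deposited series table holds a signal equal to median minus background intensity, scaled by 1 factor for each sample (100% of values matched to 0.1%). The sample in each channel was taken from the labels' dye. The members and lists were chosen with earlier results of these data known.

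Mean intensity was corrected by normexp (offset 50), then loess within and Aquantile between arrays, giving control spots and outliers no weight and dropping outlier values. Log2 values of a probe's spots were averaged. Kept were the 23165 probes that were well above background in 4 or more of the 8 samples, and the probe with the highest mean and at least 3 values per group stood for a gene. Genes were named through RefSeq accessions, gene IDs or symbols (assembly mOryCun1.1), which gave 22400 of 43603 probes a symbol. The groups were compared by limma 3.58.1 under R 4.3.3 (dye as covariate, array as random block at a correlation of 0.239, Benjamini-Hochberg adjustment over 11252 genes). Probes of a gene were compared in the same fit over 20704 probes. Levels are log2 normalised intensities, and a difference is the fitted dexamethasone minus saline value. The number of arrays limits the precision, with a median SE of 0.13. The fit was tested on simulated data.

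Named were members past the threshold, the 3 genes with the smallest p in each family, genes fixed by symbol, and the leading genes of each further list. Not every gene so named is printed, and 2 member genes are counted but not reported by name here. CLCN5, KCNS2 and KCMF1 were named after their values were seen, and so were TTR, KL, DNAI1 and the neuron markers. Alternatives covered background, normalisation, filters, probe rule, block, dye, the deposited table, and each sample and array left out, with the probe of each gene held except where the filter or probe rule was the choice.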

Additional observations from a re-analysis of the deposited data

Results flagged for a closer look

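In 2 of 77 groups of 4 values of the named channel genes, 1 sample stood apart from the other samples of its group by more than Dixon's 95% limit for 4 values, which chance passes in about 5% of groups. TRPM7 in dexamethasone 3 read 8.21 log2 units, below the 8.34 to 8.35 of the other dexamethasone samples. SCNN1A in saline 1 read 9.31, above the 8.97 to 9.01 of the other saline samples.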

How the results depend on the processing

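The count of called genes over all genes was 7, and 11 with plain background subtraction, 14 with processed signals, 3 with quantile normalisation, 3 and 2 with probes well above background in all samples or at least 1, 22 with no array block, 15 with no dye covariate and 0 with array means. It was 2135 with 75th percentile scaling, 2208 and 191 without the first or second saline array, 0 and 1 without the first or second dexamethasone array, and 0 to 11 without single samples. The ion channel count of 0 became 17 with that scaling and 15 and 2 without the first or second saline array. The ion channel median of 0.01 was -0.51 with that scaling (all genes -0.25), 0.0941 and -0.0495 without the first or second saline array, and -0.0479 to 0.0548 without single samples. In the deposited table the median of all genes was 0.13, and that of ion channel genes 0.06.

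For pairing, each gene's value was taken as its deviation from the mean of its group. These deviations in same-numbered samples of the 2 groups correlated by -0.12, -0.14, -0.02 and 0.09 over all genes. Over the channel genes they correlated by 0.25, 0.09, 0.16 and 0.38. Not every pair passed 0.1, so the numbers were not taken to pair the samples. With the replicate block the counts were 5 genes and 0 ion channel genes, with 11 channel genes (15.3%, against 16.7% of all genes) at an unadjusted p under 0.05. Except under another filter on dim probes or another probe rule, each gene kept its probe. Of 1089 values of named genes, 1006 kept direction and side of the threshold, 22 passed it, 47 had the other sign with a reported difference under 1 SE, and 14 reversed, where the cause was not tested. With 75th percentile scaling the reversed values were CLCC1 -0.33, CLCN7 0.30, KCNK18 -0.49, KCNK1 -0.26, KCTD13 -0.35, TRPM7 -1.22, KCNA6 -0.76, KCNS3 -1.06, KCND2 0.16, KCNAB1 -0.12 and KCNA2 -0.76. Without the second saline array they were CLNS1A -0.0147, SCN1A 0.0817 and KCNA2 -0.0449. HCN4, KCNJ11, KCNS3, SCN3A and TRPM7 were well above background in 4 of 8 samples, which limits their values.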
